A study of Mus musculus with 8 samples.

Results

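Glucose uptake and glycolysis were followed through 10 genes, Slc2a1, Hk1, Hk2, Gpi1, Pfkl, Pfkp, Aldoa, Pgk1, Ldha and Slc16a3, in mouse skin labelled Adam10 wildtype or knockout, and 9 of the 10 had a probe set whose annotation names that gene alone. These 9 are among 19935 genes measured, with the brightest probe set kept where a gene had several. Gpi1 had no such probe set and was not analysed here. Expression was measured on Affymetrix Mouse Gene 1.0 arrays in 4 samples labelled Adam10 wildtype and 4 labelled Adam10 knockout, 1 array per sample, and Adam10 encodes a surface protease whose substrates include Notch. The labels call the material both mouse skin and primary skin cells, and they give no age, sex, strain, allele or Cre driver. The knockout titles read cKO, which commonly means a conditional knockout, and the cells meant to lose the gene are not named. Titles also carry a P with a number, 57 to 60 for wild-type arrays 1 to 4 and 67, 68, 69 and 55 for knockout arrays 1 to 4, and whether it stands for age or an animal is not stated. Nothing says that the samples came from separate animals, so p-values measure the spread between these samples.

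Glycolysis splits glucose into pyruvate in the cytosol, and lactate dehydrogenase turns pyruvate into lactate when it is not burned in mitochondria. Keratinocytes, the main cells of the epidermis, are known for taking up glucose through Slc2a1 and releasing much of it as lactate. Many genes of the pathway are targets of the hypoxia-inducible factors, transcription factors that are stabilised at low oxygen and bind the core letters ACGTG or GCGTG.

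These letters were searched on both strands of promoter windows from RefSeq (GRCm38.p6), each running from 250 bases before to 50 bases after a transcript start. All 10 genes had at least 1 window, 14 windows in all. ACGTG or GCGTG lay in 11 of these 14 windows, against 43.8% of all 32851 windows. ACGTG alone lay in 8 of the 14 against 19.6%, GCGTG alone in 6 against 32.4%, and the E-box CACGTG, which contains ACGTG, in 1 against 7.15%. Windows of Aldoa overlap and share the same site, which these counts hold more than once. Counted by gene, ACGTG or GCGTG lay in 9 of 10 against 46.7% of all genes. ACGTG lay in 7 of 10 against 21.8%, GCGTG in 5 against 35.2% and CACGTG in 1 against 8.09%. The members' windows were also richer in G and C, with a median of 62.8% in the upstream bases against 52.4% in all windows. A match of 5 letters is a description of the sequence and shows no binding. One stretch of 30 bases is shown for each measured gene other than Hk1, whose probe sets disagree, with the matched letters in capitals, in the direction of the gene.
Slc2a1, chr4:119108697-119108726, plus strand: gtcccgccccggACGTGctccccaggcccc
Hk2, chr6:82774489-82774518, minus strand: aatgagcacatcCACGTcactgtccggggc
Pfkl, chr10:78009889-78009918, minus strand: atttgtagactgGCGTGcgctccgcctttc
Pfkp, chr13:6648822-6648851, minus strand: ggccccgcccttGCGTGagtcccgcccatc
Aldoa, chr7:126799363-126799392, minus strand: tgtggctcgagtCACGTcctagcggggcgg
Pgk1, chrX:106186938-106186967, plus strand: gcgtcgtgcaggACGTGacaaatggaagta
Ldha, chr7:46845647-46845676, plus strand: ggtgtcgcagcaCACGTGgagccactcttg
Slc16a3, chr11:120949028-120949057, plus strand: caggcagcggtgACGTGcgcgggggACGTG
Capitals reading CACGT are ACGTG on the other strand. The matches shown begin 36 bases before the transcript start in Slc2a1, 52 in Hk2, 99 in Pfkl and 68 in Pfkp. They begin 126 bases before it in Aldoa, 150 in Pgk1, 145 in Ldha and 27 in Slc16a3. The same Aldoa match lies 202 bases before another annotated start. Some genes hold further matches outside the stretch shown, such as 226 bases before the start in Hk2 and 136 and 23 in Pfkp. The whole 250 bases before the start are shown for Pfkl, the gene with the smallest p among the 9 measured, which holds 1 match.
Pfkl, chr10:78009808-78010057, minus strand: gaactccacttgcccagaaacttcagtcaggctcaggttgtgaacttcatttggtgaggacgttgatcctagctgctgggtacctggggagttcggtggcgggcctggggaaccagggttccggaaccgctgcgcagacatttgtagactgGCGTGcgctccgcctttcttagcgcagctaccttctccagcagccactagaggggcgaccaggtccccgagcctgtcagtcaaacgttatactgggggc

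The arrays differed in more than genotype. Wild-type array 4 correlated least with its own group (mean r = 0.969, against 0.981 to 0.993 for the other 7 arrays). Skeletal muscle markers stood out on that array, where the median of 16 markers was 3.48 log2 units above its mean over all arrays. The same median was 0.50 on wild-type array 3, and the remaining 6 arrays had -0.76 to -0.26. Dermal fibroblast markers gave 3.46 for wild-type array 4 and 1.19 for array 3, and adipocyte markers gave 2.61 for array 4. The epidermal marker lists were measured on every array, the suprabasal one averaging 9.97 to 10.6 and the basal one 8.09 to 9.55 (log2). The dermal fibroblast list averaged 4.95 to 5.01 on the knockout arrays and 4.98 to 8.51 on the wild-type arrays. For the endothelial list the averages were 3.20 to 3.44 and 3.27 to 5.73, where the median of all probe sets was 3.73 to 3.92. These are probe set values and give no amount of epidermis or dermis. Whether the samples were whole skin or skin cells was not tested. Adam10 itself read 7.39, 7.33, 7.06 and 7.34 in wild type and 6.85, 7.00, 7.04 and 6.79 in knockout. It was 22.0% lower (difference -0.36, SE 0.11), with no overlap between the groups and a limma adjusted p of 0.064, so RNA of the gene was still measured in the knockouts. The call depended on the processing. Quantile normalization gave an adjusted p of 0.033 and cyclic loess gave 0.027. It was 0.046 and 0.031 among genes above the 25th percentile and the median, 0.037 with 16 added to each value and 0.049 with a trended prior, but 0.132 after median centring and 0.107 with array weights. It was 0.058 to 0.150 with 1 array left out.

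All 9 measured genes had a lower mean in the knockout samples, and 3 of them fell past the threshold, Pfkl, Pfkp and Aldoa. These 3 encode enzymes of the committed and the splitting steps of glycolysis. Of all 19935 genes, 2.34% were called lower (467 genes) and 8.75% in either direction, with limma and a Benjamini-Hochberg adjusted p under 0.05. Lower genes made up 26.8% of all calls, and this split depended on the scaling, with 10.4% after median centring, 37.0% after quantile normalization and 43.1% after cyclic loess. The median difference of the 9 genes was -0.50 on the log2 scale, where the median over all genes was 0.0027. None of the 9 was called higher, and 7 of them had an unadjusted p under 0.05, as did 25.1% of all genes. The call of 3 genes depended on single arrays. With 1 array left out it was 0 without wild-type array 2 or 3 or knockout array 1, 2 or 3, 2 without wild-type array 4, 5 without knockout array 4 and 7 without wild-type array 1. The difference stayed below 0 for all 9 genes in each of these 8 fits and under each scaling.

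**Figure D1:**
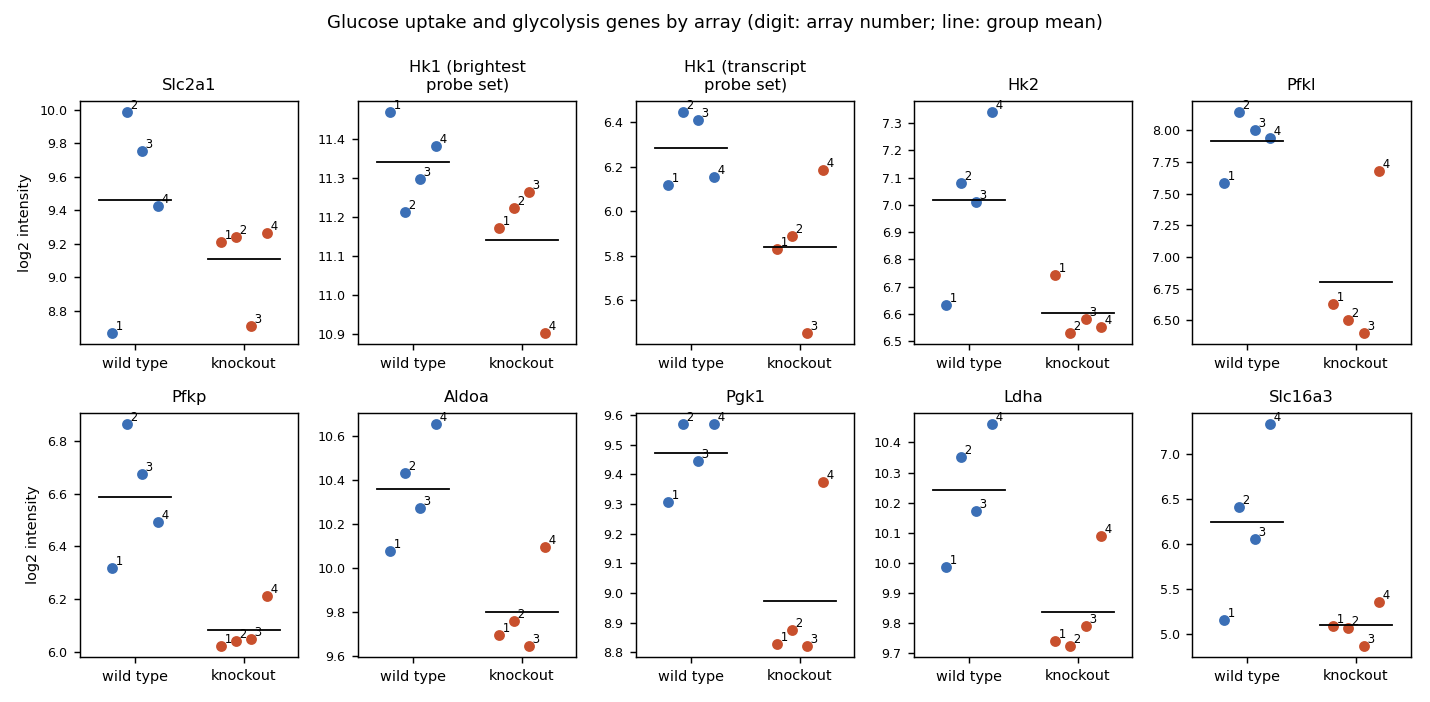
Log2 intensity (vertical axis, a separate scale per gene) on the 4 wild-type and 4 knockout arrays for the 9 measured genes, with both probe sets of Hk1. Each point is an array with its number, and lines are group means. Pfkp is the gene whose groups do not overlap, and knockout array 4 is the highest knockout array for 7 of the 9 genes.

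Slc2a1 encodes GLUT1, the transporter that brings glucose into keratinocytes. Its log2 intensity was 8.67, 9.99, 9.76 and 9.43 on wild-type arrays 1 to 4 and 9.21, 9.24, 8.71 and 9.27 on knockout arrays 1 to 4. Wild-type array 1 was lowest of all 8, and the knockout range lay inside the wild-type range. The difference was -0.35 (SE 0.26, limma adjusted p = 0.42), less than the SD of the wild-type arrays (0.58, n = 4). It ran from -0.62 without wild-type array 1 to -0.18 without wild-type array 2.

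Hexokinases trap glucose in the cell by adding a phosphate. Hk2, the inducible form, read 6.63, 7.08, 7.01 and 7.34 in wild type and 6.74, 6.53, 6.58 and 6.55 in knockout. All but 1 knockout value lay below the lowest wild-type value, and the difference was -0.41 (SE 0.14, limma adjusted p = 0.0998). It passed only without wild-type array 1 among the fits with 1 array left out (adjusted p = 0.023).

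Hk1, the hexokinase of most tissues, needs its probe sets told apart. The brightest, which the selection rule kept, averaged 11.2 and lists 1 accession and 0 RefSeq transcripts of Hk1. That accession also stands on 16 probe sets annotated to both Hk1 and the ribosomal protein gene Rpl17, which averaged 10.0 to 11.8. The other Hk1 probe set averaged 6.06 and lists 4 RefSeq transcripts of Hk1. What the brightest one hybridises to was therefore not settled. It read 11.47, 11.21, 11.30 and 11.38 in wild type and 11.17, 11.22, 11.26 and 10.90 in knockout, a difference of -0.20 (SE 0.11, limma adjusted p = 0.28). The probe set with transcripts read 6.12, 6.45, 6.41 and 6.15 in wild type and 5.83, 5.89, 5.45 and 6.19 in knockout, a difference of -0.44 (SE 0.15, limma adjusted p = 0.105) that missed the threshold as well. The mean of both probe sets did pass (-0.32, adjusted p = 0.047), although the pair may not measure the same RNA.

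Phosphofructokinase carries out the step that commits glucose to glycolysis, and both of its listed genes fell. Pfkl, the liver-type subunit, read 7.59, 8.15, 8.0 and 7.94 in wild type and 6.63, 6.51, 6.40 and 7.68 in knockout. Knockout arrays 1 to 3 lay below every wild-type array, while knockout array 4 lay above wild-type array 1. The mean was 53.9% lower (difference -1.12, SE 0.26, limma adjusted p = 0.026). Without knockout array 4 the difference was -1.41 (adjusted p = 0.0015), and the call also held without wild-type array 1 or 4 (0.027 and 0.030). It was lost without wild-type array 2 (adjusted p = 0.075) or 3 (0.075) and without knockout array 1 (0.075), 2 (0.091) or 3 (0.073).

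Pfkp, the platelet-type subunit, read 6.32, 6.86, 6.67 and 6.49 in wild type and 6.02, 6.04, 6.05 and 6.21 in knockout. It was the 1 member whose knockout values all lay below all wild-type values, as they did for 5.86% of all genes. The mean was 29.5% lower (difference -0.51, SE 0.12, limma adjusted p = 0.033, exact two-sided permutation p = 0.0286, the smallest that 70 assignments of the arrays can give). The call held without wild-type array 1 or 4 or knockout array 4, and it was lost without wild-type array 2 (adjusted p = 0.077) or 3 (0.096) and without knockout array 1 (0.088), 2 (0.102) or 3 (0.084).

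Aldoa encodes the aldolase that splits the 6-carbon sugar, the main form in muscle and in many other tissues. It read 10.08, 10.43, 10.27 and 10.65 in wild type and 9.70, 9.76, 9.65 and 10.09 in knockout. The highest wild-type value came from array 4, where muscle markers were high, and knockout array 4 just exceeded wild-type array 1. The mean was 32.2% lower (difference -0.56, SE 0.14, limma adjusted p = 0.040). Without wild-type array 4 the difference was -0.46 (adjusted p = 0.0535). The call was also lost without wild-type array 2 (0.098) or 3 (0.083) and without knockout array 1 (0.105), 2 (0.114) or 3 (0.106). All Aldoa fits stayed below 0, and with the mean of the muscle markers as a covariate it was -0.40 (adjusted p = 0.131).

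Pgk1, on the X chromosome, encodes phosphoglycerate kinase, the first step of the pathway that yields ATP. It had 3 probe sets with the same accessions, which differed by at most 0.048 on any array, so a processed copy elsewhere in the genome cannot be told from the gene. It read 9.31, 9.57, 9.45 and 9.57 in wild type and 8.83, 8.87, 8.82 and 9.37 in knockout. Its difference of -0.50 (SE 0.14) had a limma adjusted p of 0.0506. Without knockout array 4, the knockout array that lay within the wild-type range, it was -0.63 (adjusted p = 0.0085), and without wild-type array 1 it was -0.55 (adjusted p = 0.047). The other 6 fits with 1 array left out did not pass, with adjusted p-values up to 0.146.

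Ldha encodes the lactate dehydrogenase chain that favours lactate, and Slc16a3 encodes MCT4, a carrier that exports lactate. Ldha read 9.99, 10.35, 10.17 and 10.46 in wild type and 9.74, 9.73, 9.79 and 10.09 in knockout. Its difference was -0.40 (SE 0.13, limma adjusted p = 0.081), and it passed without wild-type array 1 (adjusted p = 0.042) or knockout array 4 (0.049) and in none of the other 6 such fits (up to 0.207). Slc16a3 read 5.15, 6.42, 6.06 and 7.34 in wild type and 5.09, 5.07, 4.86 and 5.36 in knockout. The knockout arrays were close together and low, while the wild-type arrays spanned more than 2 log2 units, from array 1 near the knockouts to array 4. The difference was the largest of the 9 genes (-1.15, SE 0.36) and missed the threshold (limma adjusted p = 0.079). It was -0.78 without wild-type array 4 and -1.51 without wild-type array 1 (adjusted p = 0.011), the 1 such fit of 8 that passed (the others up to 0.179). With the muscle marker mean as a covariate it was -0.54 (adjusted p = 0.239).

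**Figure D2:**
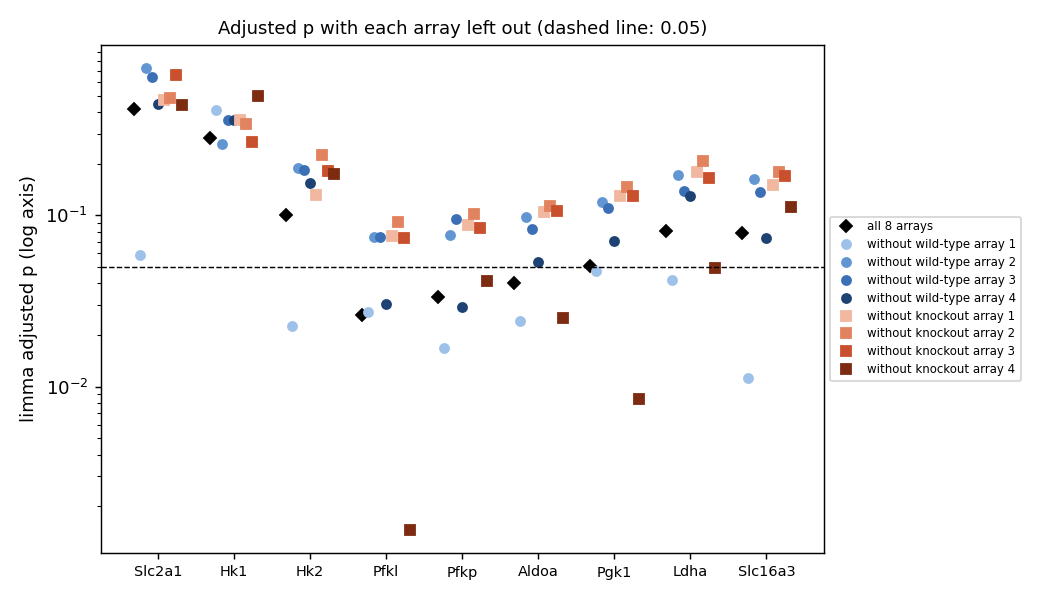
Limma adjusted p (log axis) of the 9 measured genes with all 8 arrays (black diamonds) and with each wild-type array (blue circles) or knockout array (orange squares) left out. The dashed line is 0.05. Pfkl and Pfkp lie below it in 3 of the 8 fits and Aldoa in 2, and Slc2a1 and Hk1 in 0 of them.

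Knockout array 4 stood between the groups for most of these genes. It was the highest knockout array for 7 of the 9, against 31.4% of all genes and 52.2% of the genes called lower. The median of the 9 genes lay 0.55 below the wild-type mean on knockout arrays 1 to 3 and 0.26 below it on knockout array 4. For Pfkl the values were -1.41 and -0.24, for Pgk1 -0.63 and -0.10, and for Ldha -0.49 and -0.15. Hk2 lay at -0.40 and -0.46 and the brightest Hk1 probe set at -0.12 and -0.44, so these did not share the pattern. The same array was not higher for Adam10, where it read lowest of the 4 knockouts. Its title number (55) lies near those of the wild-type arrays (57 to 60) and away from those of the other knockouts (67 to 69). What that number stands for is not given, and its part in these differences was not tested. On the wild-type side, array 1 was the lowest of the wild types for 8 of the 9 genes. The share of all genes with that array lowest was not computed.

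**Figure D3:**
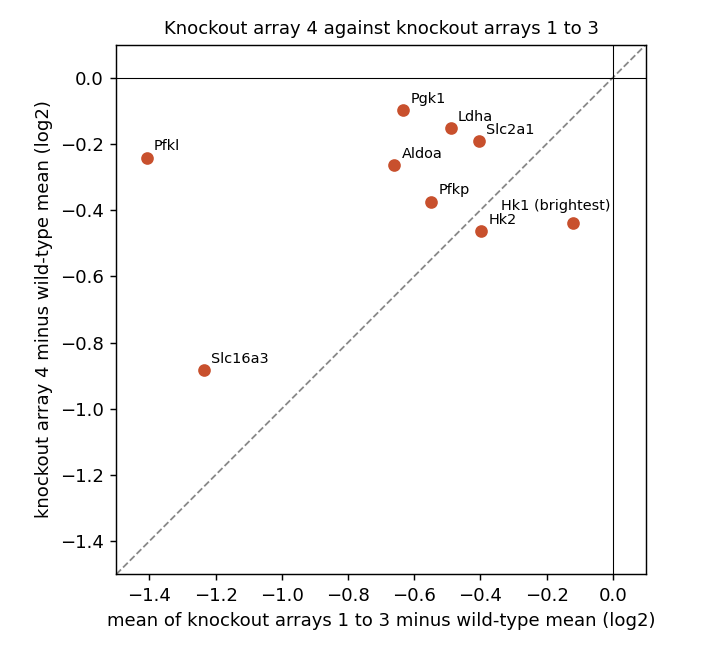
Difference from the wild-type mean (log2) on knockout array 4 (vertical axis) against the mean of knockout arrays 1 to 3 (horizontal axis) for the 9 measured genes, with the brightest probe set of Hk1. The dashed line marks equal values, and 7 genes lie above it, Pfkl farthest, at -0.24 against -1.41.

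The other enzymes of the pathway were also lower in mean. Of 17 further genes measured, 2 fell and 0 rose past the threshold, with a median of -0.25. All 17 differences were negative as deposited, and 15 after median centring and 16 after quantile normalization or cyclic loess. With array weights 15 were negative, and with the muscle marker mean as a covariate 14 were. Some of the 17 were dim, such as Pgk2, Ldhc and Gapdhs (wild-type means 2.32, 2.70 and 3.17). Among genes above the median of all genes, 9 of the 17 remained and all 9 were negative. Pkm, a pyruvate kinase, was at -0.16 (SE 0.13, limma adjusted p = 0.47). The share of negative differences over all genes was 49.6%. Aldoc, a second aldolase, read 7.41, 7.55, 7.72 and 7.30 in wild type and 6.27, 6.46, 6.32 and 7.06 in knockout. It was 48.9% lower (difference -0.97, SE 0.17, limma adjusted p = 0.0096) and passed in all 8 fits with 1 array left out. Pgam1, the widely expressed phosphoglycerate mutase, read 8.24, 8.62, 8.52 and 8.63 in wild type and 7.71, 7.71, 7.73 and 8.16 in knockout (difference -0.67, SE 0.14, limma adjusted p = 0.016). Pgam1 passed in 4 of the 8 fits. The adjusted p was 0.051 without wild-type array 3 and 0.051, 0.061 and 0.052 without knockout arrays 1, 2 and 3. With the mean of its probe sets the difference was -0.70 (limma adjusted p = 0.0092). Muscle isoforms had large differences with large errors, -1.51 (SE 0.83) for Eno3 and -1.46 (SE 0.78) for Pgam2, and they were highest on wild-type array 4. Gapdh and Eno1 had no probe set of 1 symbol and were not analysed here.

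**Figure D4:**
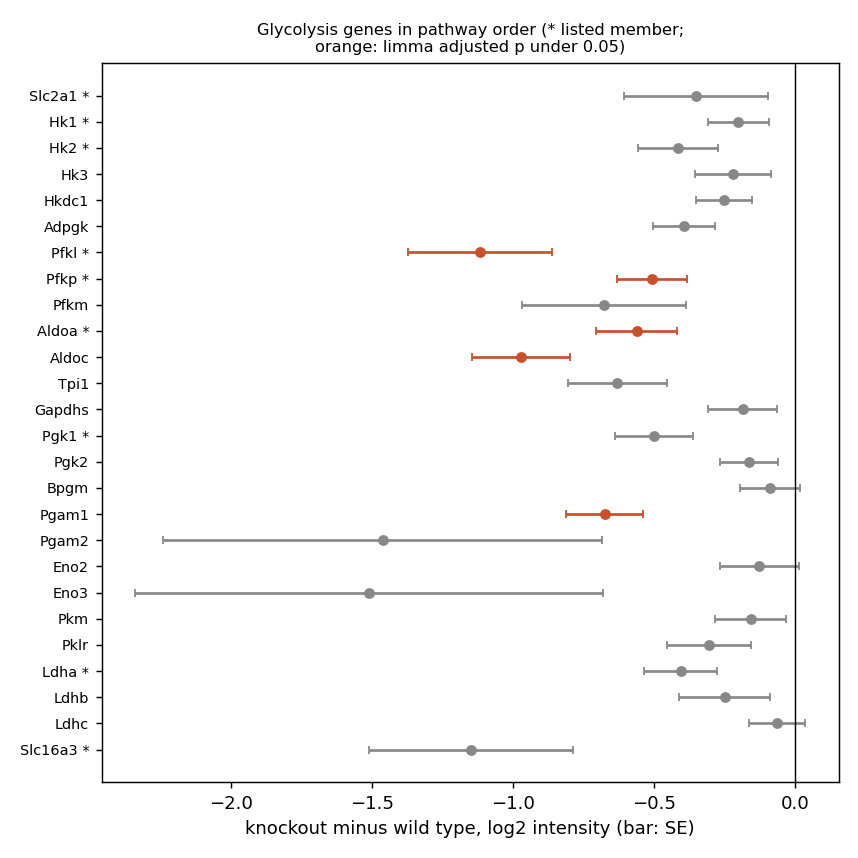
Knockout minus wild type in log2 intensity, with SE, for 26 glycolysis genes from glucose uptake at the top to lactate export at the bottom. Asterisks mark the 9 listed genes and orange marks an adjusted p under 0.05, reached by Pfkl, Pfkp, Aldoa, Aldoc and Pgam1. All 26 differences lie below 0 with the values as deposited. Of the 17 unlisted genes, 15 stay below 0 after median centring and 14 with the muscle marker mean as a covariate.

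Genes that act for the same step were set against each other within each array, as 7 pairs. The lactate carriers changed unequally before adjustment. Slc16a3 minus Slc16a1, the gene of the carrier MCT1, averaged -0.82 ± 0.82 over the wild-type arrays and -2.15 ± 0.16 over the knockout arrays (log2, SD, n = 4), a change of -1.33. An exact permutation test, two-sided, gave p = 0.0286, the least that it can give, and 0.20 after Benjamini-Hochberg adjustment over the 7 pairs. None of the 7 pairs passed after adjustment. Pfkp minus Pfkl changed by 0.61 (exact permutation p = 0.14), with a knockout value of -1.47 on array 4, near the wild-type range of -1.45 to -1.27, and the highest at -0.35. Hk2 minus Hk1 changed by 0.028 with the Hk1 probe set that lists transcripts (exact permutation p = 0.91) and by -0.21 with the brightest one (exact permutation p = 0.34).

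Among other carriers 2 genes rose, and 2 regulators of pyruvate dehydrogenase moved in opposite directions. Of 12 other glucose or hexose transporters 1 rose and 0 fell, where 6.41% of all genes rose. It was Slc2a5, the fructose carrier GLUT5, which read 4.74, 4.73, 4.74 and 4.25 in wild type and 5.72, 5.80, 5.70 and 5.87 in knockout. It was 2.23-fold higher (difference 1.16, SE 0.13, limma adjusted p = 0.0014). Of 16 measured genes of lactate and pyruvate handling 2 rose and 1 fell. Pdp1, the phosphatase that switches pyruvate dehydrogenase on, rose by 0.86 (SE 0.10, limma adjusted p = 0.0024), and Pdk1, a kinase that switches it off, fell by 0.58 (SE 0.13, limma adjusted p = 0.027). Slc16a7, the gene of the carrier MCT2, rose by 0.65 (SE 0.12, limma adjusted p = 0.011). Slc2a5, Pdp1 and Slc16a7 passed in all 8 fits with 1 array left out, and Pdk1 in 3, its adjusted p being 0.069 to 0.084 without wild-type array 2 or 3 or knockout array 1, 2 or 3.

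Hypoxia response genes that are not glycolytic enzymes were tested from the same fit. Of 23 measured genes 6 fell and 0 rose, where 2.34% of all genes fell and 6.41% rose. The median was -0.36 against 0.0027 over all genes, and 17 of 23 were below 0 against 49.6%. Those below 0 numbered 16 after median centring and 19 after quantile normalization or cyclic loess. They numbered 15 with the muscle marker mean as a covariate or without both wild-type arrays 3 and 4. The 6 that fell were Higd1a, Egln3, Bnip3, Vegfa, Pdk1 and Ero1a. Higd1a, a mitochondrial protein, read 6.75, 6.73, 7.15 and 7.02 in wild type and 5.26, 5.10, 4.92 and 6.32 in knockout, a fall of 64.9% (difference -1.51, SE 0.26, limma adjusted p = 0.0087). Knockout array 4 was again the highest knockout, here below every wild-type array. Egln3, a prolyl hydroxylase that marks the hypoxia-inducible factors for destruction, read 7.15, 8.44, 8.10 and 8.15 in wild type and 6.69, 6.69, 6.28 and 7.18 in knockout (difference -1.25, SE 0.27, limma adjusted p = 0.020). Bnip3, a mitophagy receptor, changed by -1.24 (SE 0.29, limma adjusted p = 0.028) and Vegfa, the growth factor of blood vessels, by -0.70 (SE 0.16, limma adjusted p = 0.024). Ero1a, an oxidase of the endoplasmic reticulum, changed by -0.45 (SE 0.12, limma adjusted p = 0.041). Other genes of the list gave values near or above 0 that did not pass, such as Bnip3l at 0.13 and Kdm3a at 0.33. Hif1a, which encodes the oxygen-regulated subunit itself, was at 0.10 (SE 0.17, limma adjusted p = 0.74), and array data say nothing of its protein. The count of 6 was 1, Higd1a, without wild-type array 2 or 3 or knockout array 1, 2 or 3. It was also 1 with the muscle marker mean as a covariate or without both wild-type arrays 3 and 4, and 4 after median centring. Pdk1 and Egln3 also belong to the lists of pyruvate handling and of regulators.

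**Figure D5:**
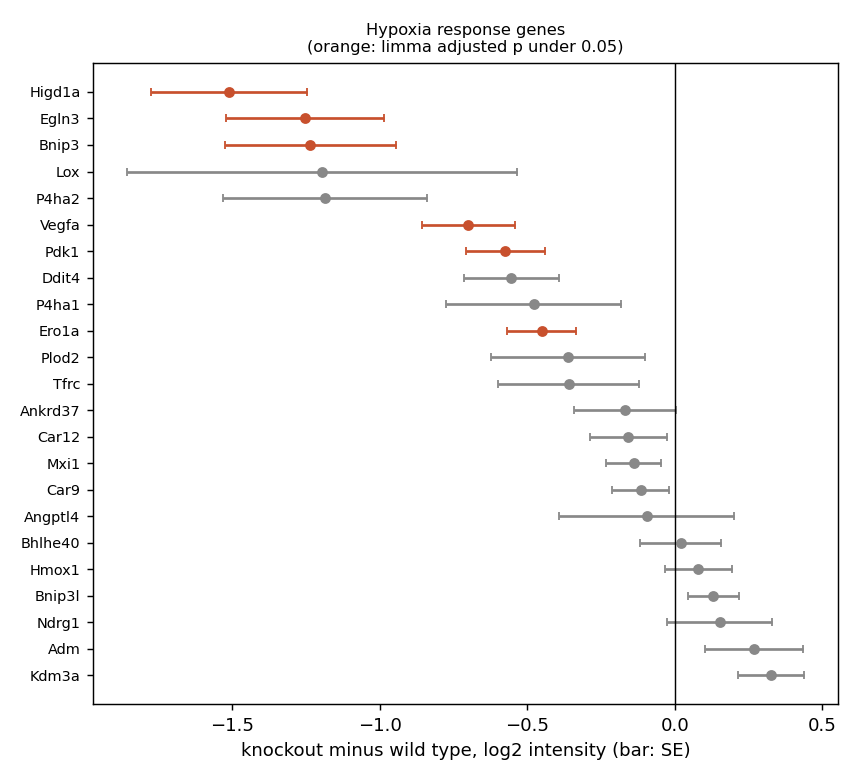
Knockout minus wild type in log2 intensity, with SE, for 23 hypoxia response genes, sorted by difference. Orange marks the 6 genes with an adjusted p under 0.05, from Higd1a at -1.51 to Ero1a at -0.45.

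The branches of glucose metabolism were read against the 2.34% of all genes that fell. Of 7 measured pentose phosphate genes 2 fell. They were H6pd, the glucose-6-phosphate dehydrogenase of the endoplasmic reticulum (difference -0.63, SE 0.13, limma adjusted p = 0.018), and Pgd, the next oxidising enzyme of the cytosolic branch (difference -0.41, SE 0.10, limma adjusted p = 0.031). Of 14 glycogen genes Pgm1, a phosphoglucomutase, fell (difference -1.26, SE 0.34, limma adjusted p = 0.048), with wild-type array 4 at 7.72 and the other wild types at 6.08 to 6.27. Without 1 array H6pd passed in 6 of 8 fits (adjusted p up to 0.061), Pgd in 3 (up to 0.085) and Pgm1 in 3 (up to 0.141). Of 7 gluconeogenesis genes 0 passed in limma (1 at an unadjusted p under 0.05), and Fbp1 came nearest (-0.68, SE 0.19, limma adjusted p = 0.052). All 7 differences were below 0, and 4 with the muscle marker mean as a covariate. Some of the 7 were dim, such as G6pc, Fbp2 and Fbp1 (wild-type means 2.3, 3.2 and 3.6). Pck1 and Pcx were highest on wild-type array 4 (6.86 and 7.83). Among genes above the median of all genes, 4 of the 7 remained and all 4 were negative. Below 0 were also 11 of 14 glycogen and 5 of 7 pentose phosphate genes, where all genes gave 49.6%. The counts were 7 of 12 for other transporters, 9 of 16 for lactate and pyruvate handling and 8 of 16 for regulators. A uniform direction was thus not particular to glycolysis. Among 16 measured regulators of glycolysis Egln3 was the 1 that passed.

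The genes most like the 3 called members over the 8 arrays, by Pearson correlation, are given without a test, since all share the same arrays and genotype groups. Nearest to Pfkl were Prr5l (0.981), Grhpr (0.979) and Ndufa4l2 (0.978). Prr5l was dim, with 2.77 on wild-type array 1 and 3.15 on the next lowest wild-type array. Its limma adjusted p was 0.033 as deposited and 0.0625 after quantile normalization. Nearest to Pfkp were Lrp1 (0.975), Trub1 (0.974) and Selenbp2 (0.970). Nearest to Aldoa were Vegfa (0.985), Kcnab2 (0.983) and Bnip3 (0.980). Of these 9 genes Ndufa4l2, a mitochondrial protein, had the largest difference (-1.41, SE 0.22, limma adjusted p = 0.0054) and passed in all 8 fits with 1 array left out.

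Markers of other cells moved with genotype as well, and their counts stand against 2.34% of all genes called lower and 6.41% called higher. In samples that may mix cell types, fewer cells of a type and less RNA per cell cannot be told apart. Macrophage markers were lower in the knockout (5 of 11 called, a median of -0.69 to -0.16 relative to the mean of all arrays against 0.22 to 0.91 in wild type). Basal keratinocyte markers were higher (9 of 10 called, 0.33 to 0.62 against -0.92 to -0.28), as were cell cycle genes (9 of 11 called, 0.18 to 0.38 against -0.39 to -0.19). Skeletal muscle, dermal, adipocyte and endothelial markers had 0 calls in limma. An unadjusted p under 0.05 was reached by 2 of 16 muscle, 5 of 10 dermal, 2 of 10 adipocyte and 0 of 9 endothelial markers, against 25.1% of all genes. Their high values were on wild-type array 4 and, for the first 2 lists, on array 3. Endothelial markers were also somewhat raised on array 3 (0.15, against -0.59 to -0.26 on the arrays other than wild-type 3 and 4). Red blood cell markers, of which 3 of 11 were measured, had 0 calls in limma and 0 unadjusted p-values under 0.05. Suprabasal markers had 1 fall among 9, with 7 of the 9 differences below 0. All 11 macrophage, 16 muscle and 9 endothelial markers had differences below 0, as did 9 of 10 dermal and 9 of 10 adipocyte markers. All 10 basal keratinocyte markers and all 11 cell cycle genes were above 0. The part of cell composition in the differences of the glycolysis genes was not tested. Without both wild-type arrays 3 and 4 the differences were -1.06 for Pfkl, -0.51 for Pfkp and -0.46 for Aldoa, with limma adjusted p-values of 0.096, 0.103 and 0.146. With the muscle marker mean as a covariate they were -1.08, -0.53 and -0.40, with adjusted p-values of 0.054, 0.056 and 0.131.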

How the data were processed

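RNA of 4 wild-type and 4 knockout samples, labelled both mouse skin and primary skin cells, was hybridised to 1 array each. The authors deposited an intensity for each probe set on each array, summarised by RMA, as the submitters' processing notes name it. RMA usually corrects background and normalizes between arrays before it takes a robust average over a probe set's probes. Its version and settings were not given in the sources used here. Values ran from 0.817 to 11173, so they were read as linear and log2 was taken with no pseudocount. Of 35519 probe sets 21780 carried 1 gene symbol in the platform annotation, and the brightest per gene left 19935 genes with no filter on dim ones. Values of different genes come from different probes and are not comparable as levels, and the number of arrays limits the precision. Groups came from the genotype labels. Limma 3.58.1 in R 4.3.3 compared them over all genes, two-sided, with Benjamini-Hochberg adjustment. Single values used an exact permutation test over 70 assignments. The fit was tested on simulated data. RefSeq promoter windows were searched as text.

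The members and lists were chosen with earlier results of these data known. Genes named beyond the members are Adam10, up to 3 rises and 3 falls per list or else the smallest p, and the 3 genes most like each of the 3 members with the smallest p. Ero1a, the muscle isoforms Eno3 and Pgam2, the enzymes Pkm, Pgk2, Ldhc and Gapdhs, and Bnip3l, Kdm3a and Hif1a fall outside this rule. So do the gluconeogenesis genes G6pc, Fbp2, Pck1 and Pcx. All of these were chosen with their values in view. Alternatives were further normalizations of the deposited values, and other filters, priors, weights, thresholds, covariates and array sets. The Hk1 probe set with transcripts, and leaving out wild-type array 4 with knockout array 4, were added after the data were seen. No protein sequences were used here.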

Additional observations from a re-analysis of the deposited data

Results flagged for a closer look

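Each of the 31 genes named by rule was examined in both groups for 1 array far from the other 3, by Dixon's ratio of the gap to the range, with a critical value of 0.829 for 4 samples. Chance gives about 1 such group in 20, and 11 of 62 were found, which share arrays and are not independent. Knockout array 4 was the high one for Pfkp (ratio 0.871, 6.21 against 6.05 for the nearest), Pgk1 (0.906, 9.37 against 8.87), Pgam1 (0.949, 8.16 against 7.73), Pgm1 (0.853, 5.93 against 5.19) and Grhpr (0.85, 6.70 against 6.07). Wild-type array 4 was high for Pgm1 (0.883, 7.72 against 6.27) and low for Slc2a5 (0.972, 4.25 against 4.73). Knockout array 3 was low for Slc2a1 (0.903, 8.71 against 9.21). Knockout array 2 was low for H6pd (0.867, 4.36 against 4.72). Wild-type array 1 was low for Prr5l (0.939, 2.77 against 3.15), and wild-type array 3 was low for Adam10 (0.831, 7.06 against 7.33).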

How the results depend on the processing

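The direction of all 9 genes and of their median held in every alternative run, with the median between -0.62 (cyclic loess) and -0.40 (median centring). The calls did not hold. The count of 3 called members was 1 after median centring or with the Y-linked mean as a covariate, 0 at a threshold of 0.01, with the muscle covariate or without wild-type arrays 3 and 4, 5 with the mean of all probe sets or without wild-type array 4 and knockout array 4, 6 among genes above the median, and 7 with array weights or at a threshold of 0.10. Of all genes tested, 5.13% were called lower among genes above the median, 6.1% with array weights and 4.5% at 0.10, against 2.34% in the main fit. The share was 1.43% after median centring, 1.98% with the Y-linked covariate, 2.47% with the muscle covariate and 0.642% at 0.01. It was 1.68% without wild-type arrays 3 and 4, 2.31% with the mean of all probe sets and 3.74% without both arrays 4. Leaving out 1 array gave 0 to 7 members, 161 to 647 genes called lower (467 with all arrays) and 426 to 1417 called higher (1277). Genes called lower numbered 286 after median centring, 1216 with array weights, 128 at 0.01, 898 at 0.10 and 746 without wild-type array 4 and knockout array 4. Genes called higher numbered 843 after quantile normalization, 2453 after median centring (which put the median of all genes at 0.10), 769 after cyclic loess, 2405 with array weights, 350 at 0.01, 2060 at 0.10 and 591 without wild-type arrays 3 and 4. Members with an exact permutation p under 0.05 numbered 1, and 3 after quantile normalization, 4 after cyclic loess, and 0 to 4 with 1 array left out. Paralog pairs numbered 1, and 0 to 2 with 1 array left out. Without wild-type arrays 3 and 4 both counts were 0, but so few arrays leave too few assignments for the exact test to reach 0.05. That 0 therefore shows nothing. Fewer arrays and other thresholds change the counts by construction, and other causes were not tested. No paired analysis was possible because the labels give no replicate numbers shared by the groups. No detection calls were used, so signal over background limits the dim genes by an unknown amount.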
